A study of Dreissena polymorpha with 11 samples.

Results

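Half-body samples of untreated zebra mussels were compared with digestive gland, using 4 of the 11 arrays of a series on tissues and larvae of this bivalve, Dreissena polymorpha. The members were chosen by their titles: half-body 1, labelled female, and half-body 2, labelled male, against digestive gland 1, labelled female, and digestive gland 2, labelled male. Each array had received 500 ng of total RNA labelled with Cy3, and neither group carried a treatment or a genetic alteration. The age of these animals was not given, and another label called both digestive gland samples female. The half-body arrays carry different sexes and so stand for different animals, while for digestive gland the labels disagree on sex and do not settle this. The 2 arrays of a tissue differ in labelled sex and slide together, and the p-values cover only the differences between these particular arrays. The other 7 arrays held gill, male gonad, female gonad and larvae, and the 5 of them from adult tissues shared the estimate of spread in the fit.

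The digestive gland of a bivalve is a mass of blind tubules in which food particles are taken up and digested inside cells, and it also stores reserves and handles many foreign compounds. A half-body sample is a mixture of organs. The labels did not say which organs were in it or whether it held digestive gland itself. In such whole-tissue samples, fewer cells of a type and less RNA per cell cannot be told apart.

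The array carried 13654 probes for 3541 sequences, named by identifiers beginning EY (2864 sequences), AM (437), AJ (135) or other letters. A RefSeq gene list of 51549 entries (assembly UMN_Dpol_1.0) held none of the identifiers, and the one gene symbol among the names was RXR. Markers of digestive gland, muscle, gill, foot or gonad could therefore not be looked up, and the tissue labels were not checked against them. A probe is called detected where the scanner software marked it well above background. Detected probes numbered 4726 and 5247 on half-body 1 and 2, against 4679 and 5318 on digestive gland 1 and 2, and no spot was saturated. Levels are log2 signals minus the array's 75th percentile over the 3234 probes detected on all 9 adult arrays, and all differences are half-body minus digestive gland. A probe was tested if detected on both arrays of either group, which left 4782 probes of 2005 sequences.

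The arrays lay on 2 slides. Slide 1 held half-body 1 and digestive gland 1, and slide 2 held half-body 2 and digestive gland 2, so that slide and labelled sex follow each other. Both half-body arrays lay in the upper position of their slide and both digestive gland arrays in the lower one, so position and tissue cannot be told apart.

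One stretch of the half-body arrays stood apart. With AM identifiers left out, 45.4% of the spots in rows 1 to 24 of the 192 rows were detected on half-body 1 and 54.6% on half-body 2, against 36% on digestive gland 1 and 40.3% on digestive gland 2. In rows 25 to 192 the shares were 30.6% and 33.9% on the half-body arrays, against 32.1% and 36.3% on the digestive gland arrays. The excess in the first rows was thus present on both half-body arrays and smaller on the digestive gland arrays. It also appeared on gill 2, with 50.9% against 32.3%, and on male gonad 2, with 45.9% against 37.3%, both in the upper position of a slide. Gill 1 and larvae 2, also in the upper position, had a smaller excess, with 39.5% against 33.4% and 36.9% against 34.6%. The spread between duplicate spots, as an SD in log2 units, was 0.74 and 0.82 on half-body 1 and 2, against 0.46 and 0.35 on digestive gland 1 and 2. Without pairs that had a spot in the first 24 rows it was 0.52 and 0.55 on the half-body arrays, against 0.43 and 0.35 on the digestive gland arrays. Results are given with and without those rows, a choice made after seeing the data.

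**Figure D1:**
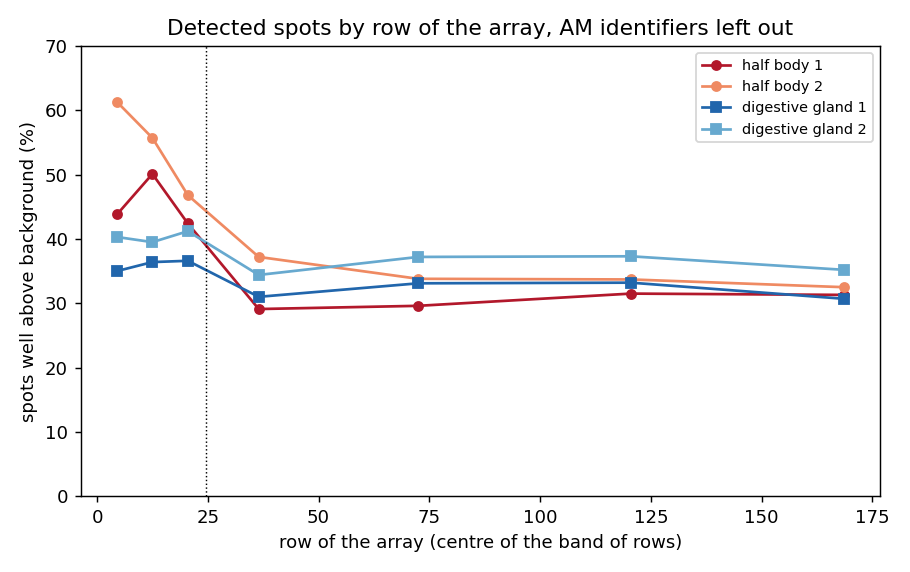
Percent of spots well above background (y axis) in bands of rows of the array (x axis, centre of each band, rows counted from the top), with AM identifiers left out; circles are half-body arrays, squares digestive gland arrays, and the dotted line marks the end of row 24. In rows 1 to 8, 43.8% and 61.3% of spots were detected on half-body 1 and 2, against 35% and 40.3% on digestive gland 1 and 2, while the 4 arrays lay between 30.7% and 35.2% in rows 145 to 192.

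With all identifiers in the fit, limma called 0 of 4782 probes (0%) at an adjusted p below 0.05, in either direction. The lowest adjusted p was 0.0559. At an unadjusted p under 0.05 there were 412 probes (8.62%), of which 230 (4.81%) were higher and 182 (3.81%) lower in half-body samples. The threshold times the number of tested probes is 239.1. The filter let in probes detected in a single group, which had to differ, so 239.1 is not the count due by chance. Among the 3982 probes detected on all 4 arrays, 254 had an unadjusted limma p under 0.05. Counting the 3817 probes without AM identifiers in the same fit left 0 calls and 396 probes at an unadjusted p under 0.05, or 10.4%. Of the 965 AM probes, 16 (1.66%) had an unadjusted p under 0.05. The median standard error of the log2 difference was 2.25 for AM probes and 0.56 for EY probes. The same fit with the first 24 rows left out gave 0 calls of 4140 probes and 293 at an unadjusted p under 0.05. Fitted by limma to the medians per sequence, with all identifiers, 9 of the 2005 sequences with a tested probe were called. The same filter on detection applied to them, and their direction and rows on the array were not looked at.

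The AM sequences disagreed between the slides. The median AM probe was 1.34 log2 units higher in half-body samples on slide 1 and 1.41 lower on slide 2 (a difference of -1.41). The median EY probe differed by -0.10 on slide 1 and -0.02 on slide 2. Of the AM probes, 42.1% exceeded 2-fold upward on slide 1 and 2-fold downward on slide 2, half-body over digestive gland, against 0.419% of the other probes. A further 3.11% of AM probes ran the other way, lower on slide 1 and higher on slide 2. Their group-mean difference, with a median of -0.21, therefore describes neither slide.

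The level of the AM probes differed more between the 2 digestive gland arrays than between the 2 half-body arrays. Their median level was -7.39 on half-body 1 and -5.98 on half-body 2, against -8.75 on digestive gland 1 and -4.09 on digestive gland 2. The median AM probe differed by 1.35 between half-body 2 and half-body 1 and by 3.91 between digestive gland 2 and digestive gland 1. The 2 male gonad arrays also stood apart, at -9.56 and -3.79. EY probes lay at medians of -5.10 and -4.62 on the half-body arrays, against -5.08 and -4.55 on the digestive gland arrays. The cause of the spread of AM levels was not tested.

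**Figure D2:**
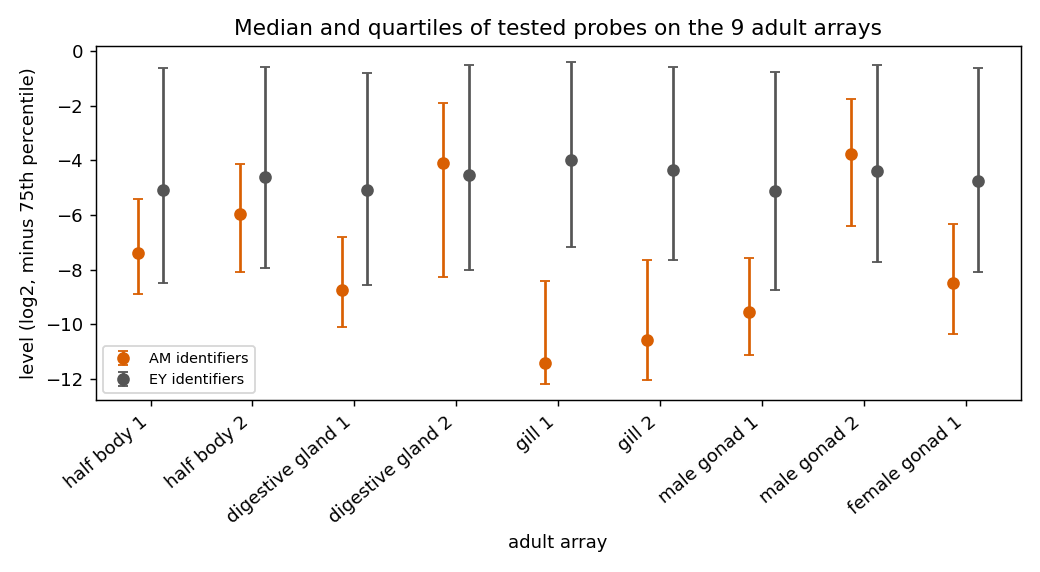
Median level (y axis, log2 signal minus the array's 75th percentile) of the tested AM probes (orange) and EY probes (grey) on each of the 9 adult arrays (x axis), with bars from the lower to the upper quartile. The AM median lies at -4.09 on digestive gland 2 and -8.75 on digestive gland 1, with half-body 1 at -7.39 and half-body 2 at -5.98 between them, while the EY medians of these 4 arrays span -5.10 to -4.55.

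Probe by probe, the differences on the 2 slides share no array, and they were compared as a description. Pearson's r across all tested probes was 0.24. Without AM it was 0.48, for EY probes 0.55 and for AM probes -0.09. The first 24 rows carried part of this likeness, since without them r was 0.13 over all probes and 0.37 without AM. Both slides gave the same direction for 55.5% of all tested probes, for 61.1% without AM and for 33.3% of AM probes. Across probes, the pair of half-body arrays correlated at 0.95 and the pair of digestive gland arrays at 0.87, with 0.97 and 0.96 when AM was left out. Probes are not independent replicates, and these values describe the 4 arrays only.

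**Figure D3:**
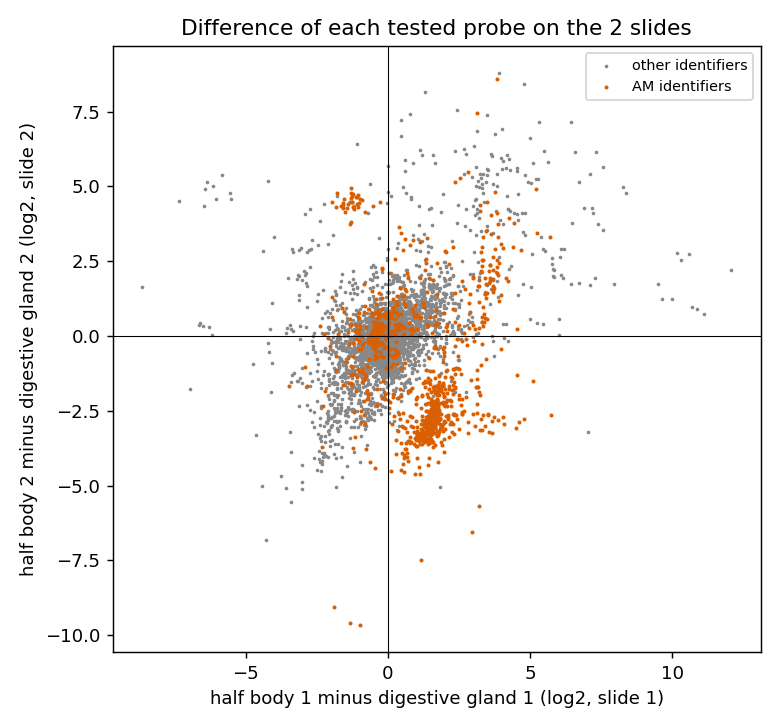
Each point is one of the 4782 tested probes, with half-body 1 minus digestive gland 1 on the x axis and half-body 2 minus digestive gland 2 on the y axis, both in log2 units; orange points are AM identifiers and grey points all others. Many of the AM points form a cloud to the lower right, higher in half-body samples on slide 1 and lower on slide 2, with 42.1% of AM probes past 2-fold both ways; grey points spread along the diagonal, with r = 0.48.

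When AM identifiers were left out before scaling and fitting, limma called 31 of 3817 probes (0.812%), each for a different sequence. Of these, 30 (0.786%) were higher and 1 (0.0262%) was lower in half-body samples, with adjusted p between 0.0178 and 0.0489. With slide as a block, 18 of the 31 were called as well and 13 were not. The 30 higher probes had 1 spot each and were detected on both half-body arrays and on neither digestive gland array, so they entered the test only through the group in which they are high and had to differ. Their p-values set half-body levels against digestive gland values at background, and their differences are bounds, from at least 2.16-fold to at least 29.6-fold (median 9.59-fold). Such a bound compares the half-body mean with the dimmest level detected on each digestive gland array, or with the probe itself where that was brighter.

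Of these 30 probes, 24 (80%) lay in the first 24 rows, which held 13.9% of the tested probes without AM. With those rows left out, 2 of 3286 probes (0.0609%) were called higher and 0 (0%) lower by limma, with 328 at an unadjusted p under 0.05. One of the 2, for EY435427, was also called with the rows in. The 31 calls were also lost without half-body 2, without digestive gland 1, with normexp background correction and with the 4 arrays fitted alone. The same sequences' other probes did not show the pattern in most cases. Of 107 other probes on the array for the 30 sequences, 13 (12.1%) were detected on both half-body arrays, and none was called. The 23 of 30 that were dark on all 5 other adult arrays were seen on the half-body arrays alone among adult arrays.

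The largest of these bounds, on levels scaled without AM, belonged to a probe for EY435675, with -6.54 and -6.65 on half-body 1 and 2, against -12.96 and -13.82 on digestive gland 1 and 2. The bound was 29.6-fold, with a limma adjusted p of 0.0178. It lay in row 11, and none of the sequence's 4 other probes was tested. A probe for EY433771 stood at -7.98 and -5.48 in half-body samples, against -12.75 and -13.96 in digestive gland, or at least 26.9-fold higher, with a limma adjusted p of 0.0341. With slide as a block it was not called, at a limma adjusted p of 0.0788. It lay in row 21. The 3 other tested probes of EY433771 were also higher in half-body samples, though none was called.

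The probe for EY435427 lay outside the first rows, in row 34. It stood at -7.79 and -8.43 in half-body samples, against -12.99 and -13.71 in digestive gland, or at least 10.3-fold higher, with a limma adjusted p of 0.0178. With the first rows left out the limma adjusted p was 0.0211. It was detected on neither digestive gland array. None of its sequence's other probes was tested, so 1 spot carries the result.

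The second probe called without the first rows, for EY433734, was singled out after its values were seen. It had 1 spot in row 6 and 1 in row 189. The spot in row 189 had log2 signals of 6.29 and 6.55 on half-body 1 and 2, against 1.65 and 2.19 on digestive gland 1 and 2, and was detected on both half-body arrays. The spot in row 6 had 2.40 and 3.15 on the half-body arrays, against 1.40 and 1.32 on the digestive gland arrays, and was detected on none of the 4. The 2 spots of the same probe thus disagreed on the half-body arrays.

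The single probe called lower was one for EY434552. With AM left out of the scaling its level averaged -10.65 ± 0.43 in half-body samples and -7.34 ± 0.23 in digestive gland (SD, n = 2 each). The probe was detected on half-body 2 but not on half-body 1. With half-body 1 taken at its limit, it was at least 8.08-fold lower, with a limma adjusted p of 0.0489. The probe entered the test only through digestive gland, where it is high, and its p-value rests partly on an undetected half-body value. It lay in row 80, away from the first rows. In the fit with all identifiers, 2 other probes of EY434552 were lower in half-body samples, with differences of -2.02 and -1.83 and limma adjusted p of 0.29 and 0.31. With the first rows left out it was no longer called.

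Sequences were also sorted by whether the groups were separated. A sequence's level on an array was the median over its tested probes, and it counted as separated where the lower array of one group exceeded the higher array of the other by at least 1 log2 unit. With 2 arrays against 2, the smallest 2-sided p of an exact permutation test is 0.333, so this is a description. Of 2004 sequences with values on all 4 arrays, 133 (6.64%) were separated with the half-body samples higher and 87 (4.34%) with them lower. The groups merely did not overlap in 377 (18.8%) and 394 (19.7%). Without AM, 125 of 1629 (7.67%) were higher and 83 (5.1%) lower, and 329 (20.2%) and 371 (22.8%) did not overlap. Of 375 AM sequences, 8 were separated higher and 4 lower.

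The surplus of higher sequences depended on the first rows. With them left out and without AM, 58 of 1497 sequences (3.87%) were separated higher and 87 (5.81%) lower, so that lower sequences were the more frequent. With all identifiers the same counts were 64 and 92 of 1854.

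The 2 directions differed in how they were measured. Without AM, 80 of the 125 higher sequences rested on 1 tested probe, against 33 of the 83 lower ones. In 75 of the 125, no tested probe was detected on either digestive gland array, whereas in 18 of the 83 none was detected on either half-body array. The median difference was 4.06 among the higher sequences and -2.04 among the lower ones. Since most of the higher sequences were set against undetected digestive gland values, these sizes cannot be compared directly. Among the dimmest 543 sequences by mean level, 90 were higher and 34 lower. Among the next 543 the counts were 20 and 37, and among the brightest 543 they were 15 and 12. Of 45 higher and 50 lower sequences with at least 2 tested probes, the groups did not overlap, in the same direction, for any tested probe in 37 and 42. Every tested probe was itself separated by at least 1 log2 unit in 19 of the 37 and 25 of the 42.

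Detection alone showed the same link with the first rows, but with more probes on the digestive gland side. Without AM, 104 of 12265 probes were detected on both half-body arrays and neither digestive gland array. Of these, 81 (77.9%) lay in the first 24 rows. Probes detected on both digestive gland arrays and neither half-body array numbered 144 of 12265. Of these, 12 (8.33%) lay in the first 24 rows, where 11.5% of all probes lay. Among the other probes of the same sequences, 10.9% of 366 were detected on both half-body arrays for the first set. For the second set, 35.7% of 484 were detected on both digestive gland arrays.

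Sequences on which at least 2 probes gave the same direction are described one by one. They are the 12 higher and 12 lower in half-body samples with the widest gap between the groups, no overlap of the groups for any tested probe, and no AM identifier. Every tested probe had a gap of at least 1 log2 unit in 11 of the 12 higher and 10 of the 12 lower, the exceptions being AJ517707, EY435543 and EY435428. The gap ran from 1.69 to 3.56 log2 units among the higher ones and from 1.89 to 3.04 among the lower ones. None passed the adjusted threshold in limma with all identifiers. The lowest limma adjusted p of any of their probes was 0.083 among the higher and 0.131 among the lower. The value of 0.083 came from a probe of EY434638 and a probe of EY435181, both in row 9 and detected on neither digestive gland array. Both probes entered the test only through the half-body arrays and had to differ. Leaving out the first 24 rows kept 10 of the 12 higher sequences and all 12 lower ones separated in the same direction. The other two, EY434638 and EY435882, had every tested probe in those rows.

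**Figure D4:**
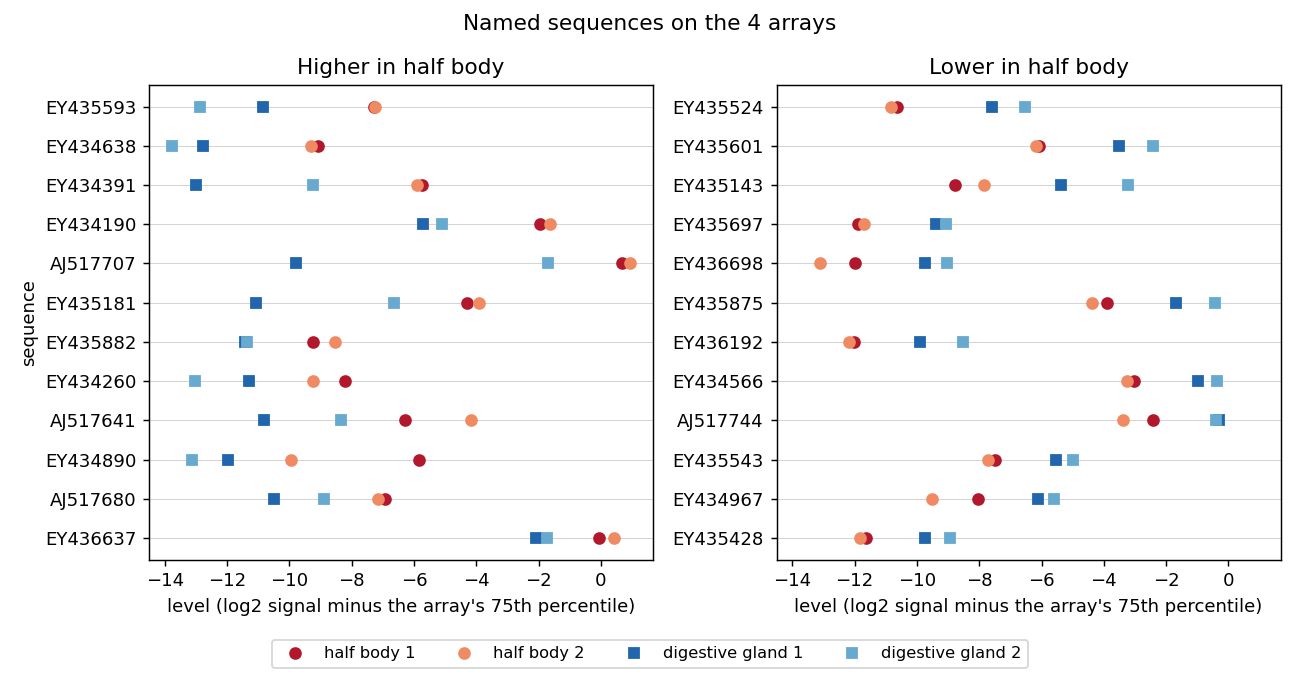
Level (x axis, log2 signal minus the array's 75th percentile) of the 24 named sequences (y axis) on each of the 4 arrays, as the median over tested probes; circles are half-body arrays and squares digestive gland arrays. The circles lie right of the squares for all 12 sequences on the left and left of them for all 12 on the right, and the digestive gland arrays lie 8.08 log2 units apart for AJ517707.

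EY436637 was bright and higher in half-body samples. Its 5 tested probes gave levels of -0.05 and 0.43 on half-body 1 and 2, against -2.09 and -1.74 on digestive gland 1 and 2. Both half-body arrays were above both digestive gland arrays by at least 1.69, and the median over probes differed by 2.10, or 4.30-fold. The 5 probes disagreed in size, with differences of 1.44, 1.69, 2.17, 5.73 and 6.61. The probe with the largest stood at -3.22 and -2.30 in half-body samples, against -10.78 and -7.96 in digestive gland. The probes' unadjusted limma p-values ran from 0.00243 to 0.0238, with no adjusted p below 0.179.

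EY434190, also bright, had 4 tested probes detected on all 4 arrays. Its levels were -1.94 and -1.62 in half-body samples, against -5.71 and -5.09 in digestive gland. These medians, 3.62 apart on average, hide digestive gland values that ran opposite ways between probes. One probe stood at 0.43 and 1.07 in half-body samples, against -7.51 and -0.67 in digestive gland. Another stood at -2.70 and -1.81 in half-body samples, against -3.78 and -6.16 in digestive gland. Each of the 4 kept the groups apart, by 1.08 to 2.57. The digestive gland arrays lay 2.21 to 6.84 apart within a probe, beside differences of 2.72 to 4.85 between the groups. In limma, with gill arrays at -2.65 and -8.42 in the fit, the lowest unadjusted p was 0.106. One of the 4 probes lay in the first rows, and without it the difference was 4.31.

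AJ517707 had the largest difference, 6.55 log2 units, and the least even digestive gland arrays. Its 4 probes gave 0.68 and 0.93 in half-body samples, against -9.79 and -1.71 in digestive gland. The half-body arrays lay 0.26 apart, while the digestive gland arrays differed by 8.08. EY434391 had the same shape over 4 probes, with -5.76 and -5.92 in half-body samples, against -12.99 and -9.25 in digestive gland, where digestive gland 1 detected none of the 4 probes and digestive gland 2 all of them. EY435181, with 2 tested probes of which 1 lay in the first rows, stood at -4.30 and -3.90 in half-body samples, against -11.08 and -6.63 in digestive gland. In these 3 sequences digestive gland 1 was the lower of its pair.

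AJ517680 had 5 tested probes, all detected on all 4 arrays. Its levels were -6.93 and -7.17 in half-body samples, against -10.48 and -8.87 in digestive gland, a difference of 2.63. The groups did not overlap, and the unadjusted limma p-values of its probes ran from 0.00936 to 0.0242. AJ517641, with 4 tested probes, stood at -6.28 and -4.17 in half-body samples, against -10.81 and -8.34 in digestive gland, with a difference of 4.35. Its probes had unadjusted limma p-values between 0.0065 and 0.0139. Slide 2 was the higher slide for AJ517641 in both groups.

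For 4 of the higher sequences no tested probe was detected on either digestive gland array. EY435593 stood at -7.28 and -7.24 in half-body samples, against -10.84 and -12.88 in digestive gland, or at least 17.8-fold higher. EY434890 stood at -5.85 and -9.94 in half-body samples, against -11.97 and -13.13 in digestive gland, or at least 12.3-fold higher, with the half-body arrays 4.09 apart. EY434260 stood at -8.20 and -9.22 in half-body samples, against -11.31 and -13.03 in digestive gland, or at least 6.94-fold higher. These 3 sequences had 2 tested probes each, with 1 of EY434890 in the first rows, and the fourth is EY434638.

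The pair of sequences carried by the first rows alone were dim. EY434638 stood at -9.09 and -9.30 in half-body samples, against -12.77 and -13.77 in digestive gland, or at least 4.99-fold higher. EY435882 stood at -9.24 and -8.53 in half-body samples, against -11.42 and -11.35 in digestive gland, a difference of 2.50, with 1 of its 2 tested probes detected on each digestive gland array. Neither had a tested probe outside the first rows, so neither could be read without them.

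Among the sequences lower in half-body samples, AJ517744 was one of the brightest and had 4 probes detected on all 4 arrays. Its levels were -2.41 and -3.38 on half-body 1 and 2, against -0.32 and -0.40 on digestive gland 1 and 2. The groups were separated by 2.01 and differed by -2.54, with unadjusted limma p-values from 0.000941 to 0.0088 and adjusted p of at least 0.131. The gill arrays were far lower, at -12.35 and -12.01.

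EY434566 and EY435875 were bright as well. EY434566 stood at -3.03 and -3.25 in half-body samples, against -0.99 and -0.36 in digestive gland, a difference of -2.46. With no filter on detection, or with probes detected in any adult group, its direction reversed, to 0.18 in both cases. EY435875 stood at -3.90 and -4.38 in half-body samples, against -1.68 and -0.42 in digestive gland, a difference of -3.09. With no filter on detection, the difference of EY435875 was -0.95. Each had 2 tested probes detected on all 4 arrays. Half-body arrays lay closer together than digestive gland arrays in both sequences.

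EY435601 and EY435143 had the next levels down. EY435601 stood at -6.09 and -6.17 in half-body samples, against -3.52 and -2.42 in digestive gland, a difference of -3.16. EY435143 stood at -8.78 and -7.86 in half-body samples, against -5.39 and -3.21 in digestive gland, a difference of -4.02 and the largest of the 12. Each had 1 of its 2 tested probes in the first rows, and without those rows the differences were -3.69 and -3.32.

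EY435543, with 3 tested probes detected on all 4 arrays, stood at -7.51 and -7.71 in half-body samples, against -5.53 and -5.00 in digestive gland, a difference of -2.34. EY434967 stood at -8.03 and -9.52 in half-body samples, against -6.12 and -5.59 in digestive gland, a difference of -2.92 over 3 tested probes. EY435524 had the widest gap of the lower sequences, 3.04, with -10.63 and -10.84 in half-body samples, against -7.58 and -6.54 in digestive gland. Of its 2 tested probes, 1 was detected on each half-body array. With no filter on detection, the difference of EY435524 was -0.50. In all 3 the half-body arrays were the lower pair.

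The remaining 4 were dim. EY435697 stood at -11.89 and -11.69 in half-body samples, against -9.39 and -9.07 in digestive gland, or at least 2.84-fold lower. EY436698, the one dim sequence with 4 tested probes, stood at -11.98 and -13.10 in half-body samples, against -9.73 and -9.02 in digestive gland, or at least 2.56-fold lower. EY436192 stood at -12.01 and -12.19 in half-body samples, against -9.90 and -8.51 in digestive gland, or at least 2.88-fold lower.

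No tested probe of these 3 sequences was detected on a half-body array. EY435428 stood at -11.64 and -11.83 in half-body samples, against -9.75 and -8.93 in digestive gland, with neither of its 2 tested probes detected on half-body 1 and 1 of them on half-body 2. Taking undetected arrays at their limit, it was at least 3.40-fold lower. With no filter on detection the direction of EY435428 reversed, to 0.88, as did that of EY435143, to 0.81, and that of EY435593, to -0.22.

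The dim sequences depended on the background correction, and the bounds above hold for the scanner's own. With normexp, which adds an offset to every signal, no direction turned among the 24. Among the higher sequences, EY435593 differed by 1.81, EY434638 by 1.02, EY434391 by 2.87, EY435181 by 3.05, EY435882 by 0.94, EY434260 by 0.94, AJ517641 by 2.93, EY434890 by 1.83 and AJ517680 by 1.52. Among the lower ones, EY435524 differed by -2.07, EY435697 by -0.73, EY436698 by -0.77, EY436192 by -0.80 and EY435428 by -0.82.

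The other named sequences, most of them brighter, moved less under normexp. Among the higher ones, EY436637 differed by 2.20, EY434190 by 3.45 and AJ517707 by 5.70. Among the lower ones, AJ517744 differed by -2.51, EY434566 by -2.44, EY435875 by -3.11 and EY435143 by -3.15. EY435601 differed by -2.45, EY435543 by -2.02 and EY434967 by -2.03.

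The same was counted over the wider set. The groups did not overlap for any tested probe in 37 higher and 42 lower sequences without AM, of which 20 and 23 had at least 3 tested probes. Their differences ran from 1.16 to 6.55 among the higher (median 2.10) and from -4.02 to -1.18 among the lower (median -2.05). All tested probes were detected on all 4 arrays in 20 of the 37 and 27 of the 42. A tested probe lay in the first 24 rows for 18 of the 37 and 14 of the 42, and leaving out those rows kept 31 and 41 separated in the same direction. By group mean, half-body samples were the highest adult group in 27 of the 37, with gill highest in 5 and gonad in 5. In the 42, digestive gland was highest in 22, gill in 10 and gonad in 10, and half-body samples were the lowest in 28.

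The other adult tissues place the named sequences. By group mean, half-body samples were the highest of the 5 adult groups for 9 of the 12 higher sequences. Gill was highest for 2, EY435593 and EY434260, the first of which stood at -1.76 on gill 1 and -10.53 on gill 2. Gonad was highest for 1, AJ517641. Of the 12 lower sequences, digestive gland was the highest group for 10, and half-body samples the lowest for 10. Gill was lowest for the other two, AJ517744 and EY434967. Since the members were chosen by their values in half-body samples and digestive gland, only the order of gill and gonad levels adds to the choice, and no test was made of it.

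**Figure D5:**
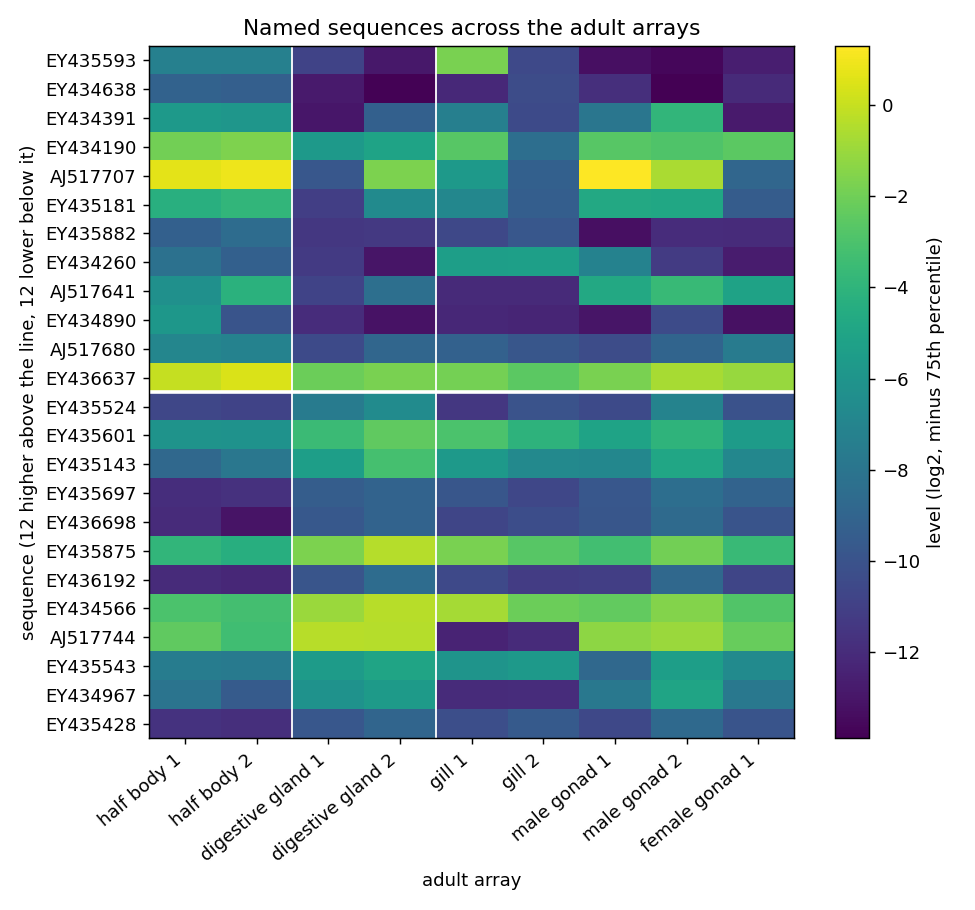
Level (colour, log2 signal minus the array's 75th percentile) of the 24 named sequences (y axis) on the 9 adult arrays (x axis), with the 12 higher in half-body samples above the horizontal line and the 12 lower below it. AJ517744 and EY434967 are dark on both gill arrays, at -12.35 and -12.01 and at -12.02 and -11.95, and AJ517707 is bright on male gonad 1, at 1.29.

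A few AM sequences were separated despite the swing between arrays. AM230265 was the brightest of the 3 named as higher, with 4 probes at 0.31 and 0.60 in half-body samples, against -3.30 and -2.79 in digestive gland, a difference of 3.50 with unadjusted limma p-values from 0.00236 to 0.0199 and adjusted p of at least 0.179. One of its probes lay in the first rows, and without them the difference was 3.11. AM230149 stood at -9.13 and -5.26 in half-body samples, against -12.95 and -12.66 in digestive gland, or at least 19.9-fold higher. AM230376 stood at -5.94 and -9.13 in half-body samples, against -10.97 and -12.56 in digestive gland. With normexp AM230149 differed by 2.22 and AM230376 by 1.74.

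Fewer were lower, and by less. AM230245 stood at -0.39 and -0.22 in half-body samples, against 0.87 and 1.17 in digestive gland, a difference of -1.32. AM230364 stood at -9.94 and -10.45 in half-body samples, against -8.86 and -8.85 in digestive gland, a difference of -1.34. AM230251 stood at -11.85 and -9.74 in half-body samples, against -8.37 and -8.08 in digestive gland. None of these 3 had a probe in the first rows. With normexp AM230251 differed by -1.04 and AM230364 by -0.47.

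In 3 AM sequences the slides were most opposed. AM230001 stood at -3.86 and -4.90 on half-body 1 and 2, against -8.09 and -2.05 on digestive gland 1 and 2. AM230326 stood at -9.52 and -7.39 in half-body samples, against -12.09 and -4.03 in digestive gland. AM230362 stood at -8.83 and -7.35 in half-body samples, against -11.36 and -3.83 in digestive gland. In each, both half-body levels lay between the 2 digestive gland levels.

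RXR, the symbol of the retinoid X receptor, a nuclear receptor that pairs with other nuclear receptors on DNA, had 5 of its 6 probes tested. As the median over probes, its level was -10.92 and -10.67 on half-body 1 and 2, against -10.37 and -11.17 on digestive gland 1 and 2, and the groups overlapped. The probes did not behave alike. One was higher in half-body samples by 2.01 and the other 4 were lower by amounts from 0.43 to 1.21 (differences of -0.43 to -1.21), with unadjusted limma p-values from 0.0313 to 0.574 and adjusted p of at least 0.484. Of the 5, 2 and 3 were detected on half-body 1 and 2, against 5 and 4 on digestive gland 1 and 2.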

How the data were processed

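Signal was measured on 1-colour Agilent arrays. The deposited intensity of each spot is background-subtracted and, per the file headers, comes from version 10.5.1.1 of Agilent Feature Extraction. The authors also deposited log2 values in 1 table, whose making no label or header records; these served only as an alternative. Its columns correlated with the scanner values of the same array at 0.986 to 0.991 for the 4 arrays compared; its scale and centring stay unknown. Columns of gill 1 and larvae 1 correlated at 0.579 and 0.279.

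Control spots and spots flagged as outliers were left out, log2 processed signals of a probe were averaged, and each array was reduced by its 75th percentile over 3234 probes detected on all 9 adult arrays. limma 3.58.1 (R 4.3.3) fitted 5 group means on these 9 arrays, with Benjamini-Hochberg adjustment over all tested probes, after a test on simulated data. Larvae were left out, since they started from 200 ng and larvae 1 had 106 detected probes. Normexp used the median signals of spots in place of the mean signals first planned. Members and named sequences were chosen with earlier results of these data known; the rule took sequences with at least 2 tested probes by gap, each probe without overlap of the groups, called probes by size, and RXR.

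The replicate numbers do not pair the samples, since both half-body titles carry the number 1, but slide and labelled sex do. Deviations of arrays on the same slide from their group means correlated at 0.42 over all probes and at 0.20 without AM. Alternatives changed the arrays fitted, the block, scaling, background, filter, threshold, spots and left-out arrays. The number of arrays limits the precision. No identifier but RXR could be given a gene.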

Additional observations from a re-analysis of the deposited data

Results flagged for a closer look

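The difference between half-body samples and digestive gland pointed opposite ways on the 2 slides for 3 of the identifier series, and in none of them was the difference between slides tested. For AM probes the median was 1.34 on slide 1 and -1.41 on slide 2. For AJ probes it was -0.22 on slide 1 and 0.14 on slide 2. For probes of the remaining identifiers it was -0.39 and 0.12. Slide and labelled sex cannot be told apart here.

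Single AM sequences did the same. AM230001 differed by 4.23 on slide 1 and by -2.85 on slide 2. AM230326 differed by 2.57 and by -3.36, and AM230362 by 2.53 and by -3.52.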

How the results depend on the processing

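Slide matches labelled sex among the 4 arrays compared, but not in the whole fit, where the male gonad arrays lay on both slides. As a replicate block, slide gave 0 calls with all identifiers and with AM merely not counted. With AM left out of scaling and fitting it gave 36 calls in place of 31 (18 of the 31 among them, 13 not). Probes at an unadjusted limma p under 0.05 numbered 597 in place of 412.

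The 31 calls made with AM left out fell to 0 with the 4 arrays only (with or without the replicate block), all 11 arrays, normexp, the deposited table, probes detected on all 4 arrays, or an adjusted p of 0.01. They were 18 with trend and robust, 2 without the first 24 rows (chosen after seeing the data), and 0 to 31 with 1 array left out: 12 without half-body 1, 0 without half-body 2, 0 without digestive gland 1, 5 without either male gonad array. The 0 calls became 9 with medians per sequence, with or without AM counted, and 31 without AM when it left before scaling. Probes at an unadjusted p under 0.05 (412, and 396 without AM) were 25 and 23 with all 11 arrays, 248 and 225 with the percentile taken over every probe, 72 and 67 in the deposited table, 884 and 854 with no filter, 254 and 244 if detected on all 4 arrays, 196 and 191 as medians per sequence, and 237 to 439 and 230 to 414 with 1 array left out.

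Separated sequences, higher and lower (133 and 87, without AM 125 and 83), were 43 and 47 (41 and 46) with normexp, 66 and 42 (61 and 38) with no filter, and 45 and 55 (41 and 53) if detected on all 4 arrays. They were 377 and 394 (329 and 371) at a gap of 0, 81 and 19 (78 and 19) at a gap of 2, 496 and 269 (259 and 244) within slide 1, and 317 and 467 (259 and 241) within slide 2. Without the first rows the higher ones were 64 (58). With 1 array left out they were 202 to 415 and 140 to 379 (153 to 218 and 132 to 171), each range reaching its top for all identifiers without digestive gland 2 and digestive gland 1.

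The median difference was -0.24 for EY and -0.25 for all probes with the percentile over every probe, -0.57 for other identifiers with quantile scaling, and 0.74, 0.55 and 0.70 for EY, other and all with no filter. Other identifiers gave -0.39 within slide 1 and 0.12 within slide 2, and AJ 0.14 within slide 2. With 1 array left out medians ran from -0.13 to 0.02 for EY, -2.09 to 1.89 for AM, -0.31 to 0.17 for AJ, -0.51 to 0.31 for other and -0.18 to 0.087 for all. The r between slides (0.24, without AM 0.48) was 0.11 and 0.37 with normexp, 0.0122 and 0.35 if detected on all 4 arrays, 0.13 and 0.37 without the first rows, and 0.34 without AM with no filter. With no filter, which adds undetected probes to a sequence's median, the differences of EY435593 (-0.22), EY435143 (0.81), EY434566 (0.18) and EY435428 (0.88) reversed; EY434566 also did (0.18) with probes detected in any adult group. With 2 arrays a group and signals near background, small differences were not detectable.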
